A study of Mus musculus with 63 samples.

Results

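Over several embryonic days (E), E15.5 among them, the dorsal cortex of the mouse makes deep-layer and then upper-layer projection neurons. Sorted newborn neurons (NBN) of E15.5 were set here against basal progenitors (BP), the cells that produce such neurons. The comparison was chosen by its labels and covers 6 libraries, 3 of NBN and 3 of BP, of the 63 in the series, with 15231 of 23078 genes tested. All groups are Ski knock-out embryos on a C57Bl/6 background that carry a Tbr2::GFP reporter, and both cell types were collected as GFP-positive cells after papain dissociation. No wild type enters the comparison, so nothing below measures an effect of Ski. Neural stem cells (NSC) of the same day, 3 libraries sorted by Hes5::GFP from Ski knock-out embryos, are described for their levels. The 10 NBN and 10 BP libraries of E16.5 to E18.5 serve a comparison between days. All 63 libraries of the series enter the fit behind the standard errors and p-values, stem cells and BP of other days included. How BP and NBN were separated within the Tbr2::GFP sort, which part of Ski is deleted, and whether libraries come from separate embryos are not given in the sources used here. The p-values therefore measure the spread between libraries of a group, which may be technical. For each gene that spread is estimated jointly over all groups of the series. A standard error can thus be larger or smaller than the 6 libraries of the comparison alone would give.

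Basal progenitors are dividing cells of the subventricular zone that descend from radial glia, express the T-box factor Eomes (Tbr2) and mostly divide to give a pair of neurons. Their daughters leave the cell cycle, lose the proneural factors, switch on terminal neuronal genes and migrate along radial fibres into the cortical plate. GFP protein outlasts the RNA of its reporter gene, which is how a Tbr2 reporter can mark recent daughters as well as the progenitors themselves. SKI, missing here in every group, is a co-repressor that binds SMAD proteins.

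The levels are deposited as TPM, a share of all transcripts in a library that is scaled for transcript length. Log2 differences are NBN minus BP on log2(TPM + 1), each ± its standard error (SE), so they understate the change of genes of low level. A gene was called higher or lower in NBN at a Benjamini-Hochberg adjusted p under 0.05 in limma and a log2 difference of at least 1 in size. No read counts are given, so the depth of the libraries is unknown.

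The sort markers stood where the labels put them. Eomes had 77.8, 43.1 and 93.5 TPM in NBN, against 516, 440.3 and 490.3 TPM in BP (log2 difference -2.80 ± 0.43, adjusted p = 9.22e-07). The groups did not overlap, but all 3 NBN libraries still held Eomes RNA. A pair of pan-neuronal genes was high in both groups, while others given below differed more. Tubb3, the neuronal tubulin, had 2749, 3406 and 2881 TPM in NBN, against 2004, 2470.4 and 2141 TPM in BP (log2 difference 0.45 ± 0.26, adjusted p = 0.195) and Neurod6, a factor of young projection neurons, had 1413, 1814 and 1538 TPM in NBN, against 1162, 1699 and 1264 TPM in BP (log2 difference 0.22 ± 0.56, adjusted p = 0.826). Neither of these 2 was called, and both were abundant in every BP library. For both, each NBN library was nevertheless above the BP library of the same number. Hes5, the Notch effector of radial glia, had 3.58, 1.02 and 2.63 TPM in NBN, against 3.05, 1.30 and 3.78 TPM in BP, against a mean of 107 ± 68.7 TPM in NSC (SD, n = 3). Ski RNA from the targeted gene was read in every library, with 47.6, 45.05 and 38.3 TPM in NBN, against 26.4, 21.95 and 25.2 TPM in BP (log2 difference 0.80 ± 0.16, adjusted p = 1.07e-04). All 3 NBN values lay above all 3 BP values, although the difference stayed under the size that was called, and a signal outside the deleted part would check nothing.

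Libraries of the same number resembled each other across the groups. Their deviations from the group means correlated at 0.57, 0.416 and 0.201 for numbers 1, 2 and 3 over 11413 genes, and each NBN library correlated best with the BP library of its own number. Library 1 of both groups was rich in Xist, the RNA of the inactive X, with 246 TPM in NBN and 209 TPM in BP, and poor in the Y-linked Ddx3y, with 0.318 and 0.630 TPM. Libraries 2 and 3 showed the reverse, with Xist at 0.207 and 2.39 TPM in NBN and 0.173 and 0.0726 TPM in BP, although all are labelled female. In these genes the groups were thus matched by number. NBN library 3 stood apart in another way: 20425 genes were above 0 TPM in it, against 16823 to 17725 in the other 5 libraries.

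Newborn neurons and basal progenitors differed in 1747 of 15231 genes tested (11.5%). In NBN 1044 genes (6.85%) were called higher and 703 genes (4.62%) lower. The groups did not overlap in 1043 of the higher and 700 of the lower genes. The size and adjusted p of a call already favour such genes, so these counts add no separate support. The share without overlap over all genes tested is not given here. At an adjusted p under 0.05 and any size, 2359 genes were higher and 2406 lower, so higher calls were in excess only among the larger differences. Without NBN library 3, described above, 968 genes were called higher and 674 lower. The median log2 difference over all genes was 0.0013. In bulk RNA, fewer cells of a type and less RNA per cell cannot be told apart, which holds for every difference below.

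**Figure D1:**
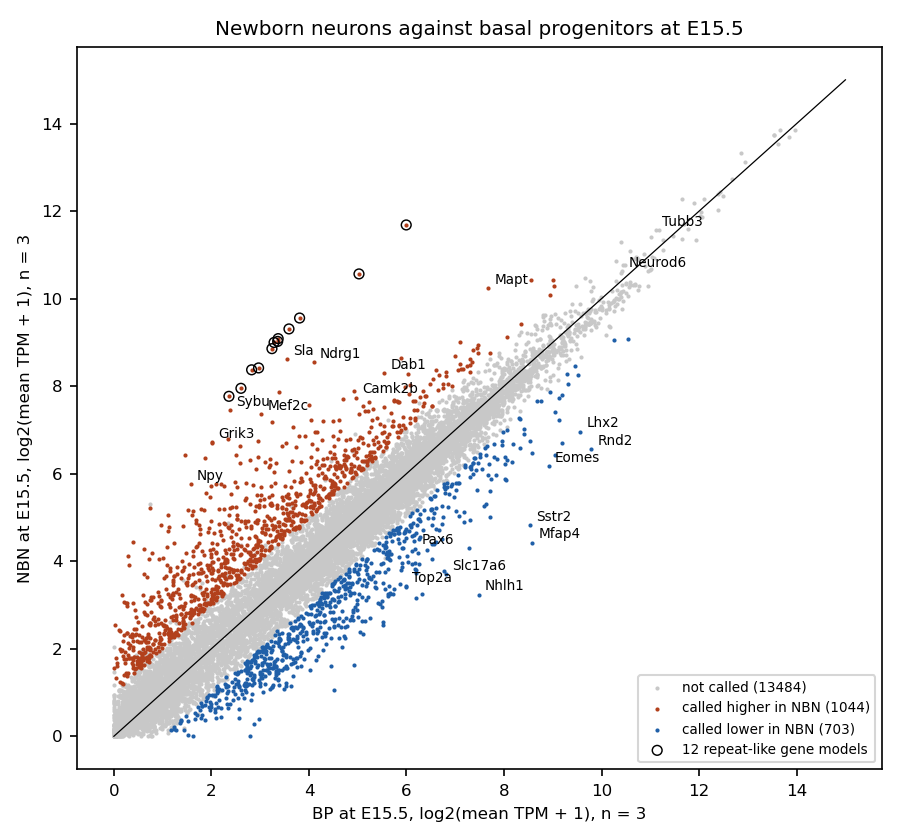
Each point is 1 of 15231 genes, with the mean level of 3 BP libraries on the x axis and of 3 NBN libraries on the y axis, both as log2(mean TPM + 1). Red points (1044) were called higher and blue points (703) lower in NBN, grey points were not called, open circles mark the 12 repeat-like gene models, and the line marks equal levels.

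The largest differences of all belong to gene models that were set apart here from the other genes. By size, the first 10 places among the higher calls went to members of a group of 12 predicted models with names such as Gm10800 and Gm10801, called repeat-like here. The GENCODE vM21 annotation types all 12 as protein coding. It places 9 of them on chromosome 9, 2 on chromosome 2 and 1 on chromosome 14. Their repeat content was not tested. Whether they share reads with each other or with other copies was not tested, so their values are taken as uncertain. Gm10800 had 1329, 673 and 7863 TPM in NBN, against 7.13, 163 and 18.6 TPM in BP (log2 difference 6.01 ± 1.86, adjusted p = 0.00976). The 12 models summed to 3686, 1910 and 22473 TPM in NBN libraries 1 to 3, against 25.03, 452 and 51.6 TPM in BP libraries 1 to 3. Over the 63 libraries of the series that sum ran between 24.1 and 31228 TPM with a median of 2578 TPM, so it varied between libraries of every group. Without NBN library 3 none of the 12 was called (adjusted p 0.0709 to 0.0993 in limma), and without BP library 1 again none was. Leaving the 12 models out and rescaling left 1720 of the other 1735 calls in place.

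Setting those models aside, a choice made after their values were seen, the 10 largest rises in newborn neurons had log2 differences between 4.45 and 5.16. Sla, which codes for a Src-like adaptor that damps receptor signalling, had 412, 367 and 397 TPM in NBN, against 9.50, 16.1 and 6.34 TPM in BP (log2 difference 5.16 ± 0.46, adjusted p = 1.96e-12). Sybu, the syntabulin that links cargo to kinesin for axonal transport, had 159, 151 and 214 TPM in NBN, against 3.36, 4.51 and 4.71 TPM in BP (log2 difference 5.07 ± 0.41, adjusted p = 1.09e-13). Only genes whose NBN and BP libraries did not overlap were ranked here, so that separation was set by the choice. Mc4r, the melanocortin receptor, had 65.9, 96.1 and 92.6 TPM in NBN, against 1.19, 2.60 and 1.43 TPM in BP (log2 difference 4.98 ± 0.36, adjusted p = 6.10e-15). Grik3, a kainate receptor subunit, had 90.03, 113 and 110.4 TPM in NBN, against 2.04, 2.05 and 4.95 TPM in BP (log2 difference 4.78 ± 0.45, adjusted p = 5.74e-12). Both were under 5 TPM in every BP library. Dync1i1, the neuronal intermediate chain of dynein, had 216, 201 and 283 TPM in NBN, against 6.999, 15.52 and 5.99 TPM in BP (log2 difference 4.57 ± 0.43, adjusted p = 5.94e-12). Ndrg1, a stress-responsive gene better known from Schwann cells, had 357, 397 and 371 TPM in NBN, against 12.4, 22.6 and 13.4 TPM in BP (log2 difference 4.50 ± 0.48, adjusted p = 2.59e-10). Dync1i1 and Ndrg1 varied more among the BP libraries, BP library 2 being the highest for each. Hs3st4, Nin, Rgs6 and Kirrel3 completed the 10, with log2 differences of 4.67 ± 0.40, 4.50 ± 0.38, 4.48 ± 0.35 and 4.45 ± 0.34. Nin codes for the centrosomal protein ninein, Kirrel3 for an adhesion protein of synapses, Rgs6 for a regulator of G protein signalling and Hs3st4 for a heparan sulphate sulphotransferase.

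**Figure D2:**
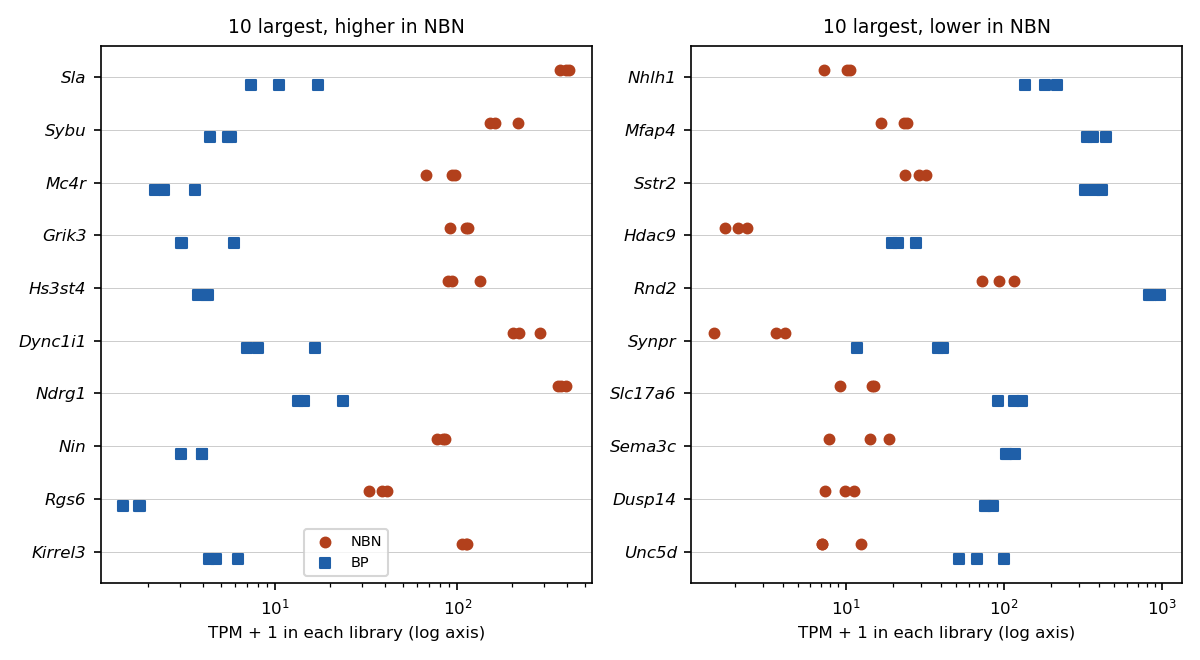
TPM + 1 in each library on a log axis for the 10 largest differences in each direction among called genes that averaged 10 TPM or more in NBN or BP and did not overlap, repeat-like models left out. Red circles are the 3 NBN libraries and blue squares the 3 BP libraries, which by this choice do not meet for any of the 20 genes.

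Among the 10 largest falls, the first was the basic helix-loop-helix gene Nhlh1, known from neuronal precursors as they leave the cycle. Nhlh1 had 9.67, 9.27 and 6.34 TPM in NBN, against 179.9, 134.8 and 217 TPM in BP (log2 difference -4.23 ± 0.35, adjusted p = 3.11e-13). Mfap4, which codes for a protein of extracellular microfibrils, had 22.3, 15.8 and 23.5 TPM in NBN, against 439, 333 and 367 TPM in BP (log2 difference -4.15 ± 0.26, adjusted p = 8.47e-17). The G protein-coupled somatostatin receptor Sstr2 had 31.1, 22.7 and 28.2 TPM in NBN, against 374, 323 and 415 TPM in BP (log2 difference -3.72 ± 0.37, adjusted p = 3.99e-11). Lack of overlap was again a condition of the ranking and not a finding. Rnd2, the small GTPase through which Neurog2 is known to drive radial migration, had 114.7, 92.8 and 72.1 TPM in NBN, against 825, 852 and 964 TPM in BP (log2 difference -3.25 ± 0.30, adjusted p = 7.35e-12). The vesicular glutamate transporter gene Slc17a6 had 13.8, 8.26 and 14.1 TPM in NBN, against 129, 90.3 and 115.3 TPM in BP (log2 difference -3.13 ± 0.36, adjusted p = 1.55e-09). Of Rnd2 and Slc17a6, Rnd2 kept the higher level in NBN. The remaining 5 were the histone deacetylase gene Hdac9 (-3.46 ± 0.27), the synaptic vesicle gene Synpr (-3.24 ± 0.46), the secreted guidance cue Sema3c (-3.08 ± 0.44), the phosphatase gene Dusp14 (-3.07 ± 0.30) and the netrin receptor gene Unc5d (-3.05 ± 0.44).

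Lists of genes by function give the shape of the change. The share of members called in each list is read against 6.85% of all genes higher and 4.62% lower, and each list's median log2 difference against the median of 0.0013 over all genes.

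**Figure D3:**
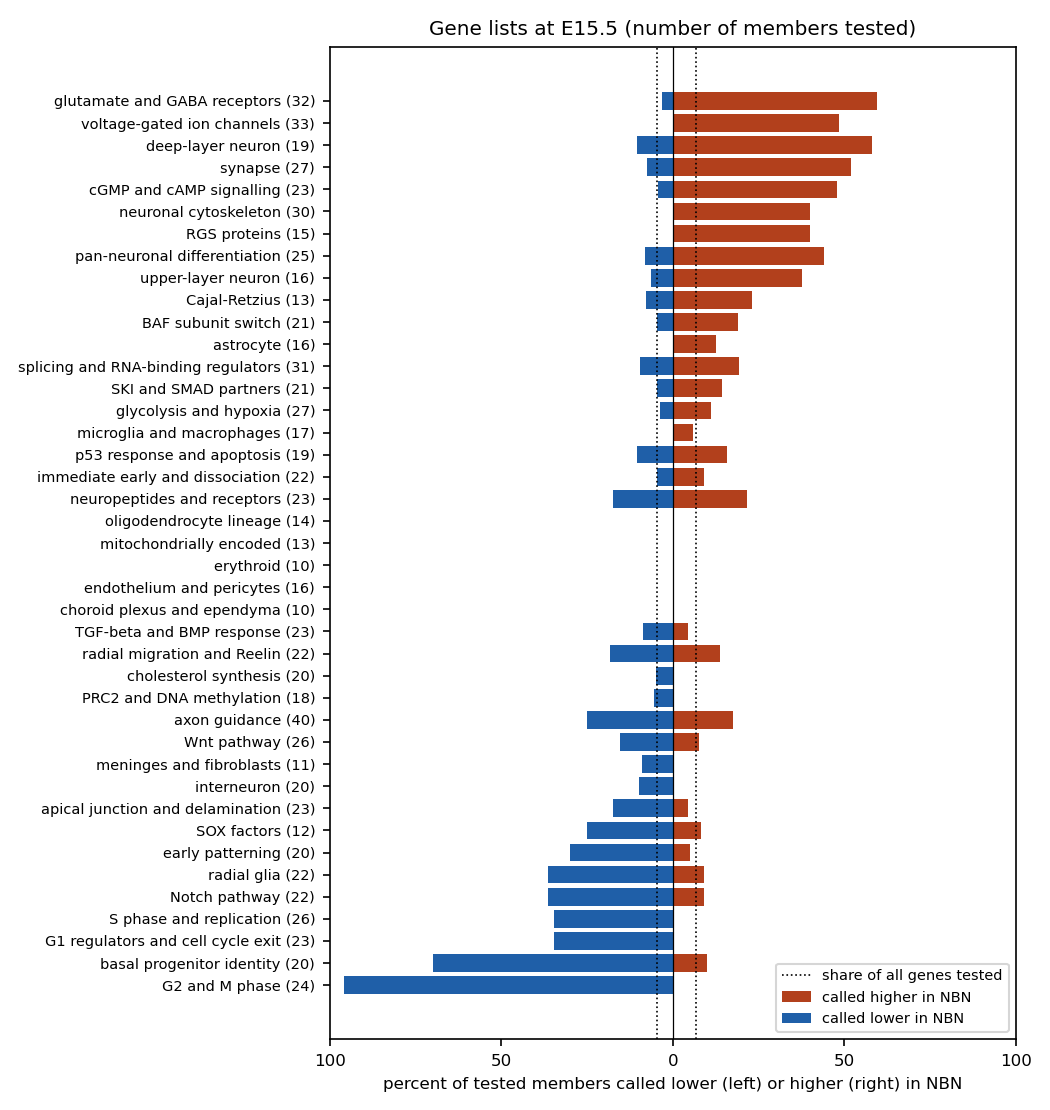
Bars give the percent of tested members of 41 gene lists that were called higher in NBN (right, red) or lower in NBN (left, blue) at E15.5, with the number tested in brackets. Dotted lines mark 6.85% and 4.62%, the shares over all genes tested, and receptors, channels, deep-layer and synapse lists stand toward the top and progenitor identity and G2 and M phase toward the bottom.

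Genes that mark basal progenitors were mostly lower in newborn neurons. Of 20 such genes 14 were called lower and 2 higher, with a median log2 difference of -1.49. The proneural factor Neurog2 had 90.5, 45.5 and 105 TPM in NBN, against 275, 206 and 209 TPM in BP (log2 difference -1.58 ± 0.30, adjusted p = 4.14e-05). Mfng, a glycosyltransferase that modifies Notch, had 22.8, 11.0 and 22.7 TPM in NBN, against 187, 126 and 154 TPM in BP (log2 difference -3.03 ± 0.24, adjusted p = 5.94e-14). NBN library 2 was the lowest NBN library for Eomes, Neurog2 and Mfng. Hes6, an antagonist of Hes1 in differentiating cells, had 124, 100.4 and 118 TPM in NBN, against 202, 174 and 186 TPM in BP, a difference of -0.71 ± 0.17 that did not reach the size that was called. The 2 members that rose were Cdh13 and Rgs16. Cdh13, the cadherin without a cytoplasmic part, had 214, 265 and 225 TPM in NBN, against 19.1, 36.6 and 31.8 TPM in BP (log2 difference 3.01 ± 0.44, adjusted p = 2.59e-07). Rgs16 had 76.4, 90.01 and 103 TPM in NBN, against 32.8, 26.4 and 31.5 TPM in BP (log2 difference 1.54 ± 0.18, adjusted p = 4.18e-09).

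Some radial glial and patterning factors were also lower. Of 22 radial glial genes 8 fell, 2 rose and 12 were not called, with a median of -0.20. Without NBN library 2 the falls were 6. Ttyh1 and Id4, the most abundant of those not called, differed by -0.0056 and -0.21 (adjusted p = 0.993 and 0.696). Pax6, which specifies cortical progenitors, had 22.8, 10.8 and 22.1 TPM in NBN, against 86.2, 64.9 and 63.5 TPM in BP (log2 difference -1.95 ± 0.31, adjusted p = 1.60e-06). Lhx2, a selector gene of the cortex, had 147, 136 and 87.5 TPM in NBN, against 844, 724 and 691 TPM in BP (log2 difference -2.63 ± 0.23, adjusted p = 8.34e-13). The groups did not overlap for Pax6 or Lhx2. Prom1, Emx2, Vim, Fabp7 and Gli3 also fell, with log2 differences of -1.70 ± 0.22, -1.67 ± 0.22, -1.05 ± 0.24, -1.34 ± 0.32 and -1.61 ± 0.35, and Vim dropped under the size called without NBN library 2 or BP library 3 (smallest -0.83). The 2 that rose were Ptprz1, a receptor phosphatase, with 213, 194 and 146 TPM in NBN, against 46.3, 53.4 and 36.9 TPM in BP (log2 difference 1.99 ± 0.33, adjusted p = 4.22e-06), and Ddah1, an enzyme that breaks down methylated arginine, with 17.1, 13.1 and 23.9 TPM in NBN, against 6.61, 5.66 and 10.3 TPM in BP (log2 difference 1.15 ± 0.30, adjusted p = 0.00227). The Ddah1 call was lost without NBN library 3 or BP library 2, with a lowest log2 difference of 0.94. In the list of early patterning genes, 6 of 20 fell (Emx1, Emx2, Lhx2, Nr2f1, Dmrta2 and Dmrt3) and 1, Lin28b, rose. Dmrta2 had 12.1, 5.02 and 11.6 TPM in NBN, against 51.4, 27.6 and 40.0 TPM in BP (log2 difference -1.98 ± 0.33, adjusted p = 3.99e-06), and the area factor Nr2f1 had 135.03, 147 and 105 TPM in NBN, against 347, 266 and 405 TPM in BP (log2 difference -1.38 ± 0.34, adjusted p = 0.00129). Lin28b, an RNA-binding protein of early development, was low in both groups with 2.35, 1.79 and 2.76 TPM in NBN, against 0.408, 0.291 and 0.492 TPM in BP. Emx1 fell by 1.47, a call lost without NBN library 3 (adjusted p = 0.05003).

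Among 12 SOX factors, which divide between progenitor and neuronal roles, 3 fell and 1 rose. The progenitor factor Sox2 had 13.0, 5.28 and 14.9 TPM in NBN, against 23.5, 20.5 and 25.8 TPM in BP (log2 difference -1.11 ± 0.28, adjusted p = 0.00152), Sox21 had 3.10, 0.854 and 4.35 TPM in NBN, against 7.13, 6.22 and 7.27 TPM in BP (log2 difference -1.19 ± 0.32, adjusted p = 0.00252), and Sox6 had 6.16, 2.01 and 6.07 TPM in NBN, against 30.2, 18.1 and 30.9 TPM in BP (log2 difference -2.32 ± 0.35, adjusted p = 6.80e-07). NBN library 2 held the lowest value of all 3 genes, and without it the calls of Sox2 (adjusted p = 0.0655) and Sox21 (adjusted p = 0.0857) were lost. Sox5, which controls the order in which deep-layer neurons form, rose with 300.3, 361 and 292 TPM in NBN, against 85.1, 119.9 and 130.2 TPM in BP (log2 difference 1.52 ± 0.37, adjusted p = 0.00103). The pan-neuronal Sox4 had 1078, 1231 and 1149 TPM in NBN, against 882, 919 and 856 TPM in BP and was not called (adjusted p = 0.134).

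Mitotic genes fell almost as a block. Of 24 genes of G2 and M phase 23 were called lower in NBN and none higher, with a median log2 difference of -2.05. Only Hmmr, a spindle protein, was not called, with 7.68, 5.25 and 8.38 TPM in NBN, against 12.2, 11.8 and 18.2 TPM in BP (adjusted p = 0.0925). Top2a, which untangles DNA before division, had 11.1, 7.16 and 11.1 TPM in NBN, against 51.3, 52.4 and 83.8 TPM in BP (log2 difference -2.54 ± 0.43, adjusted p = 5.09e-06). Cdk1, the mitotic kinase, had 5.75, 3.77 and 6.22 TPM in NBN, against 27.6, 28.9 and 47.2 TPM in BP (log2 difference -2.49 ± 0.31, adjusted p = 8.29e-09). Its partner Ccnb1, cyclin B1, had 10.05, 4.30 and 11.2 TPM in NBN, against 38.1, 37.8 and 78.9 TPM in BP (log2 difference -2.47 ± 0.30, adjusted p = 8.21e-09). Ube2c, the ubiquitin-conjugating enzyme of the anaphase-promoting complex, had 15.47, 9.61 and 11.9 TPM in NBN, against 53.3, 63.5 and 100.2 TPM in BP (log2 difference -2.43 ± 0.25, adjusted p = 8.83e-11). BP library 3 was the highest and NBN library 2 the lowest for each of these 4 genes, and the groups did not overlap. The proliferation marker Mki67 had 6.65, 3.94 and 6.24 TPM in NBN, against 28.9, 26.9 and 37.4 TPM in BP (log2 difference -2.29 ± 0.58, adjusted p = 0.00159). The spindle genes Aurka and Tpx2 and the cyclin gene Ccnb2 fell by 2.24, 2.34 and 2.13 on the log2 scale. In NSC of the same day Top2a averaged 66.2 ± 33.2 TPM and Cdk1 49.5 ± 24.8 TPM (SD, n = 3).

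Because these genes moved together, the 250 bases before the transcription start are shown here for 4 of them. These 4 had large falls and an entry in the promoter table. The choice did not cover every chromosome, so they need not be the 4 largest falls with an entry. The sequences are from RefSeq (GRCm38.p6, 5′ to 3′ on the gene's strand). They lie at chr11:99024190-99024439 (minus strand) for Top2a, chr10:69352913-69353162 (minus strand) for Cdk1, chr13:100786487-100786736 (minus strand) for Ccnb1 and chr2:164769679-164769928 (plus strand) for Ube2c. Capitals mark CCAAT, the box bound by the factor NF-Y, which reads ATTGG when it lies on the opposite strand. They also mark the core of the cell cycle homology region, spelled either as TTTGAA, which reads TTCAAA on the opposite strand, or as TTCGAA, which reads the same on both.
Top2a: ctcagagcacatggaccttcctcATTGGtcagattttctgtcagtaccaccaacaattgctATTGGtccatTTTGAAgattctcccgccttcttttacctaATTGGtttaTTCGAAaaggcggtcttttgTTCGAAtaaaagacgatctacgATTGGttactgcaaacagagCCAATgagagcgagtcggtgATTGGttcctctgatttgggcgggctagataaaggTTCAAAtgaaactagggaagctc
Cdk1: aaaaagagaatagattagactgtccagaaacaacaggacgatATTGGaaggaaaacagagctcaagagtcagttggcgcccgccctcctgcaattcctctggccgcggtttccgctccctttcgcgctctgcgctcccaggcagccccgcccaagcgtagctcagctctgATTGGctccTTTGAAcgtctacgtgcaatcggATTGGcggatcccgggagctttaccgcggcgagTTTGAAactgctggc
Ccnb1: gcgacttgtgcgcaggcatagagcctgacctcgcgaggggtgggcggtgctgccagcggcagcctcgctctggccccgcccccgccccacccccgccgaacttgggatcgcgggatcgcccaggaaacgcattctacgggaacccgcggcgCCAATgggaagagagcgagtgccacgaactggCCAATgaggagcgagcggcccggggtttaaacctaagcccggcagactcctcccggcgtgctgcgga
Ube2c: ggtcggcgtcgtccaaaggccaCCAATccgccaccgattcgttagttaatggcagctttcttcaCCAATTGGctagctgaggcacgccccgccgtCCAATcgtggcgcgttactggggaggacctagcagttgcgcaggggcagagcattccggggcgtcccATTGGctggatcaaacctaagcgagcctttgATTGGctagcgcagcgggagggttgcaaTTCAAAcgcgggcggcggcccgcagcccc
Top2a held 6 CCAAT boxes and 4 homology cores, Cdk1 3 and 2, Ccnb1 2 and 0, and Ube2c 6 and 1, a pair of the Ube2c boxes overlapping head to head. Of the 23 mitotic genes that fell, 19 have an entry in the promoter table, and 17 of these 19 (89.5%) held a CCAAT box in the same window, against 34.5% of 27025 genes in the table and 36.2% of 10850 that were tested. The homology core stood in 8 of 19 (42.1%), against 17.4% of the table and 11.9% of tested genes, and all 8 also held CCAAT. Of 9 S phase genes called lower with an entry, 7 (77.8%) held CCAAT and 2 (22.2%) the core. Over all 524 genes called lower with an entry, the shares were 43.9% and 16.8%. As 23 of the 24 listed mitotic genes were called lower, their shares describe the list as much as the calls. These matches describe the letters in 1 start per gene, the first listed, and show neither binding nor a cause.

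Genes of S phase and of G1 control fell to a smaller degree. Of 26 replication genes 9 were called lower and none higher, with a median of -0.77. Mcm2, a subunit of the replicative helicase, had 17.2, 13.9 and 14.6 TPM in NBN, against 44.8, 46.8 and 56.4 TPM in BP (log2 difference -1.63 ± 0.22, adjusted p = 6.31e-08), and Rrm1, the large subunit of ribonucleotide reductase, had 33.6, 25.7 and 32.1 TPM in NBN, against 68.3, 67.2 and 86.01 TPM in BP (log2 difference -1.25 ± 0.18, adjusted p = 3.54e-07). Mcm10 and Uhrf1, which couples replication to DNA methylation, fell, with log2 differences of -1.64 ± 0.29 and -1.44 ± 0.27. The abundant members Mcm7, with 141, 122 and 130.3 TPM in NBN, against 196, 200.5 and 208 TPM in BP, and Pcna, with 71.6, 60.1 and 77.1 TPM in NBN, against 94.3, 98.8 and 119 TPM in BP, differed by -0.62 ± 0.16 and -0.57 ± 0.20 and were not called. With a pseudocount of 5 in place of 1, the count of replication genes that fell was 4. Of 23 G1 regulators 8 fell and none rose, and these 8 included both drivers and inhibitors of the cycle. With the pseudocount of 5, 2 of the 23 fell. Cyclin D2, coded by Ccnd2, had 42.8, 23.9 and 36.3 TPM in NBN, against 139, 97.7 and 149.5 TPM in BP (log2 difference -1.89 ± 0.28, adjusted p = 5.39e-07), and the transcription factor gene E2f1 had 11.3, 9.57 and 14.2 TPM in NBN, against 25.7, 22.9 and 32.8 TPM in BP (log2 difference -1.15 ± 0.17, adjusted p = 7.57e-07). The inhibitor gene Cdkn2c had 1.70, 1.76 and 2.02 TPM in NBN, against 8.67, 7.49 and 10.8 TPM in BP (log2 difference -1.81 ± 0.28, adjusted p = 1.24e-06). Cdkn1b (p27), an inhibitor that promotes exit from the cycle, had 109, 88.9 and 86.9 TPM in NBN, against 208, 179.8 and 193 TPM in BP (log2 difference -1.02 ± 0.16, adjusted p = 1.02e-06), with the size falling under that called without NBN library 2, NBN library 3 or BP library 1 (smallest -0.96). Cdkn1c (p57) had 90.8, 93.3 and 85.6 TPM in NBN, against 157, 162 and 201 TPM in BP and Cdk4 603, 573 and 538 TPM in NBN, against 1102, 1012 and 1177 TPM in BP, differences of -0.93 ± 0.30 and -0.94 ± 0.14 that were not called.

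In Notch signalling, ligands on a differentiating cell keep its neighbours dividing. Of 22 genes of the pathway 8 fell and 2 rose, with a median of -0.76, and with a pseudocount of 5 the falls were 5. The ligand gene Dll1 had 29.5, 23.2 and 25.1 TPM in NBN, against 55.3, 41.2 and 68.5 TPM in BP (log2 difference -1.03 ± 0.17, adjusted p = 3.26e-06), and its size fell under that called without NBN library 2 or BP library 3 (smallest -0.86). Dll3 and Dll4 fell by 1.40 and 1.02, Dll4 dropping under the size called without NBN library 2 or BP library 1 or 3 (smallest -0.80). The receptor gene Notch1 fell by 1.41 and the co-activator gene Maml3 by 1.28. Of the targets, Hey1 had 11.6, 9.78 and 8.11 TPM in NBN, against 47.1, 37.5 and 62.7 TPM in BP (log2 difference -2.19 ± 0.25, adjusted p = 1.31e-09), and Nrarp, which dampens the signal, had 6.25, 4.14 and 5.17 TPM in NBN, against 24.8, 19.4 and 21.6 TPM in BP (log2 difference -1.90 ± 0.27, adjusted p = 2.40e-07). The transcription factor Rbpj itself had 65.0, 58.9 and 65.1 TPM in NBN, against 119, 98.7 and 127 TPM in BP and was not called at -0.85 ± 0.17. The members that rose were ligands. Jag2 had 21.5, 15.4 and 15.54 TPM in NBN, against 6.77, 4.60 and 6.29 TPM in BP (log2 difference 1.42 ± 0.28, adjusted p = 5.75e-05), and Dner, a transmembrane ligand of neurons, had 102, 116 and 143 TPM in NBN, against 34.5, 40.1 and 58.2 TPM in BP (log2 difference 1.44 ± 0.39, adjusted p = 0.00290).

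The Wnt and TGF-beta pathways changed in single members. Of 26 Wnt genes 4 fell and 2 rose, with a median of -0.34. The receptor gene Fzd1 had 26.5, 19.3 and 15.8 TPM in NBN, against 94.4, 87.1 and 108 TPM in BP (log2 difference -2.20 ± 0.19, adjusted p = 7.84e-13), and Lef1, a transcription factor of the pathway, had 3.71, 3.41 and 1.57 TPM in NBN, against 15.8, 12.2 and 16.2 TPM in BP (log2 difference -2.05 ± 0.22, adjusted p = 2.38e-10). Wnt5a fell by 1.77. Fzd9 fell by 1.01, a call lost without NBN library 2 or 3 or BP library 1 (highest adjusted p = 0.0693). The ligand genes that rose were Wnt7a, with 8.70, 8.96 and 12.48 TPM in NBN, against 1.34, 1.53 and 2.56 TPM in BP (log2 difference 1.98 ± 0.21, adjusted p = 1.80e-10), and Wnt7b, with 315, 352 and 288 TPM in NBN, against 128, 163 and 176 TPM in BP (log2 difference 1.03 ± 0.22, adjusted p = 2.07e-04). Without NBN library 2 or BP library 1 the Wnt7b difference dropped to 0.90 at the least, under the size called. Of 23 genes of the TGF-beta and BMP response 1 rose and 2 fell, with a median of -0.20. Bmpr1b, a BMP receptor, had 17.7, 14.53 and 14.4 TPM in NBN, against 3.11, 5.47 and 3.27 TPM in BP (log2 difference 1.76 ± 0.36, adjusted p = 9.46e-05). Tgfb2, a ligand, had 2.25, 1.66 and 0.758 TPM in NBN, against 9.55, 6.24 and 5.56 TPM in BP (log2 difference -1.68 ± 0.32, adjusted p = 3.16e-05). Smad6, an inhibitor of BMP signalling, fell by 1.01, not called without NBN library 3 or BP library 1 (smallest -0.71). Id2, the most abundant target in the list, had 711, 733 and 701 TPM in NBN, against 367, 506 and 469.6 TPM in BP and differed by 0.69 ± 0.19, without being called. Among 21 genes that code for SKI partners, SMADs and co-repressors, 3 rose and 1 fell, with a median of -0.08. The SMAD gene Smad3 had 8.28, 9.94 and 9.83 TPM in NBN, against 2.44, 2.67 and 4.401 TPM in BP (log2 difference 1.34 ± 0.20, adjusted p = 5.31e-07), and Chd5, a neuronal chromatin remodeller, had 19.9, 16.8 and 18.499 TPM in NBN, against 5.37, 5.46 and 5.31 TPM in BP (log2 difference 1.60 ± 0.33, adjusted p = 1.15e-04). Hdac1 fell, with 30.6, 27.0 and 26.7 TPM in NBN, against 66.2, 66.3 and 73.9 TPM in BP (log2 difference -1.26 ± 0.14, adjusted p = 2.63e-10).

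Neuronal genes included some already abundant in basal progenitors, with small differences, and others much higher in newborn neurons. Of 25 pan-neuronal genes 11 rose and 2 fell, with a median of 0.82. The microtubule-associated protein gene Mapt (tau) had 1061, 1365 and 1211 TPM in NBN, against 189.5, 226 and 196 TPM in BP (log2 difference 2.56 ± 0.45, adjusted p = 8.72e-06). Syt1, the calcium sensor of vesicle release, had 99.7, 112 and 116 TPM in NBN, against 16.1, 17.47 and 20.9 TPM in BP (log2 difference 2.52 ± 0.44, adjusted p = 8.22e-06). Camk2b, a calcium-dependent kinase of spines, had 203, 215 and 220.1 TPM in NBN, against 28.4, 30.3 and 32.5 TPM in BP (log2 difference 2.77 ± 0.47, adjusted p = 4.70e-06). All 3 were clearly apart in the groups, whereas Tubb3 and Neurod6, given above, were not called and differed less. Not being called does not show that levels were equal. Thy1, a surface protein of mature neurons, remained low, with 13.51, 15.49 and 11.46 TPM in NBN, against 3.01, 2.04 and 1.35 TPM in BP (log2 difference 2.23 ± 0.36, adjusted p = 2.63e-06). The 2 that fell were Nhlh2, with 23.8, 21.8 and 26.5 TPM in NBN, against 67.6, 38.7 and 60.01 TPM in BP (log2 difference -1.14 ± 0.39, adjusted p = 0.0218), and Elavl4, an RNA-binding protein, with 110.2, 121 and 137 TPM in NBN, against 243, 253 and 254 TPM in BP (log2 difference -1.03 ± 0.37, adjusted p = 0.0267). Nhlh2 was not called without NBN library 2 or BP library 1 or 3 (highest adjusted p = 0.1005). Elavl4 was called in only 1 of the 6 fits that left out a library, the one without NBN library 3 (highest adjusted p = 0.0807).

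The cytoskeleton list held both kinds as well. Of 30 cytoskeletal genes of neurons 12 rose and none fell, with a median of 0.81. Stmn4, a stathmin that destabilises microtubules, had 441, 511 and 528 TPM in NBN, against 156, 211 and 162 TPM in BP (log2 difference 1.49 ± 0.27, adjusted p = 2.28e-05), and Dclk1, the doublecortin-like kinase, had 231, 226 and 259 TPM in NBN, against 92.9, 96.0 and 110.4 TPM in BP (log2 difference 1.25 ± 0.25, adjusted p = 8.26e-05). Nefl and Ina, which code for neurofilament subunits, rose by 2.06 and 1.93. Nefm, the medium neurofilament, had 41.5, 45.2 and 31.2 TPM in NBN, against 13.2, 17.9 and 20.9 TPM in BP (log2 difference 1.14 ± 0.44, adjusted p = 0.0397), a call lost without NBN library 1 or 2 or BP library 1 or 2 (highest adjusted p = 0.151). The tubulin Tuba1a, the most abundant gene of the list, had 9211, 11278 and 10192 TPM in NBN, against 6635, 8095 and 7575 TPM in BP and was not called (adjusted p = 0.143).

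Layer markers are given by depth. Of 19 deep-layer genes 11 rose and 2 fell, with a median of 1.37. Ldb2, a LIM-binding cofactor of subcerebral neurons, had 127, 167 and 134.7 TPM in NBN, against 5.52, 14.002 and 5.85 TPM in BP (log2 difference 4.03 ± 0.39, adjusted p = 1.85e-11). Nxph3, a neurexin ligand of the subplate and layer 6b, had 98.2, 113 and 110.2 TPM in NBN, against 7.58, 5.89 and 6.93 TPM in BP (log2 difference 3.80 ± 0.38, adjusted p = 3.79e-11). Ntsr1, a marker of corticothalamic neurons, had 31.6, 34.0 and 30.6 TPM in NBN, against 0.620, 1.33 and 1.57 TPM in BP (log2 difference 3.95 ± 0.40, adjusted p = 4.63e-11). For these 3 genes every NBN library was above every BP library. Fezf2, Tle4 and Zfpm2 also rose, by 1.18, 2.34 and 1.37, with the Fezf2 call lost without NBN library 2 (adjusted p = 0.0841). By contrast Tbr1, the layer 6 factor that follows Eomes, had 489, 665 and 573 TPM in NBN, against 288, 327 and 329 TPM in BP and Bcl11b (Ctip2) 262, 352 and 227 TPM in NBN, against 146, 186 and 177 TPM in BP, neither called (adjusted p = 0.0955 and 0.240). Etv1, a layer 5 marker, had 2.94, 3.49 and 6.05 TPM in NBN, against 17.6, 12.3 and 17.7 TPM in BP (log2 difference -1.74 ± 0.60, adjusted p = 0.0226), and Pcp4 had 48.0, 40.5 and 66.2 TPM in NBN, against 122, 98.6 and 140.4 TPM in BP (log2 difference -1.22 ± 0.47, adjusted p = 0.0395). The calls of both were lost in 4 of the 6 fits that left out a library, without NBN library 1 or 2 or BP library 1 or 3 (highest adjusted p 0.0807 and 0.134).

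Of 16 upper-layer genes 6 rose and 1 fell, with a median of -0.14. Mef2c, an activity-dependent factor, had 143, 148 and 198 TPM in NBN, against 4.62, 9.03 and 7.66 TPM in BP (log2 difference 4.37 ± 0.52, adjusted p = 3.81e-09). The layer 4 factor Rorb had 15.9, 12.7 and 20.5 TPM in NBN, against 2.65, 2.15 and 1.47 TPM in BP (log2 difference 2.48 ± 0.34, adjusted p = 1.08e-07). Kitl, the KIT ligand, had 59.1, 55.1 and 112 TPM in NBN, against 3.53, 5.48 and 5.88 TPM in BP (log2 difference 3.63 ± 0.58, adjusted p = 2.19e-06), NBN library 3 being the highest for all 3 genes. Plxnd1, a semaphorin receptor, had 33.5, 48.8 and 41.9 TPM in NBN, against 4.25, 7.10 and 9.67 TPM in BP (log2 difference 2.45 ± 0.52, adjusted p = 1.84e-04). The POU factor gene Pou3f3, with 241, 188 and 186 TPM in NBN, against 403, 372 and 249 TPM in BP, and the LIM gene Lmo4, with 96.7, 112 and 115.05 TPM in NBN, against 212, 179.5 and 167 TPM in BP, were not called at -0.71 ± 0.21 and -0.78 ± 0.18. The gene that fell was Unc5d, which marks upper-layer precursors in the subventricular zone, with 11.49, 6.06 and 6.11 TPM in NBN, against 98.7, 67.1 and 51.2 TPM in BP.

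Synaptic genes were mostly higher in newborn neurons. Of 27 genes 14 rose and 2 fell, with a median of 1.16. Cplx1, a complexin that clamps fusion, had 163, 194 and 160.4 TPM in NBN, against 31.6, 46.1 and 29.8 TPM in BP (log2 difference 2.26 ± 0.31, adjusted p = 1.22e-07). Shank1, a scaffold of the postsynaptic density, had 76.4, 100.2 and 70.0 TPM in NBN, against 13.6, 18.2 and 14.54 TPM in BP (log2 difference 2.33 ± 0.36, adjusted p = 9.62e-07). The abundant Dlg4 (PSD-95), with 319.6, 437 and 312 TPM in NBN, against 206, 239.6 and 215 TPM in BP, and Vamp2, with 237, 310.4 and 257 TPM in NBN, against 155.4, 173 and 162 TPM in BP, differed by 0.68 ± 0.18 and 0.70 ± 0.16 and were not called. Besides Slc17a6, the synapsin gene Syn2 fell, with 18.9, 16.2 and 18.7 TPM in NBN, against 56.7, 33.2 and 56.6 TPM in BP (log2 difference -1.36 ± 0.29, adjusted p = 2.25e-04).

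Receptors for glutamate and GABA make up a list of 32 genes, of which 19 rose and 1 fell, with a median of 1.19. Grin2b, the NMDA receptor subunit of immature neurons, had 47.8, 53.9 and 59.0 TPM in NBN, against 3.58, 3.18 and 3.92 TPM in BP (log2 difference 3.58 ± 0.48, adjusted p = 6.25e-08). The metabotropic receptor gene Grm5 had 24.0, 19.5 and 39.1 TPM in NBN, against 0.771, 0.835 and 1.22 TPM in BP (log2 difference 3.82 ± 0.45, adjusted p = 2.24e-09). Gabra3, a GABA-A subunit of the fetal brain, had 24.1, 21.3 and 26.5 TPM in NBN, against 3.08, 2.84 and 3.53 TPM in BP (log2 difference 2.59 ± 0.29, adjusted p = 8.65e-10). The groups did not overlap for these 3 genes. Gria2, the AMPA subunit that limits calcium entry, had 239, 114 and 159 TPM in NBN, against 109, 79.5 and 48.8 TPM in BP and was not called (adjusted p = 0.162), but it was called when the fit held only the 6 libraries of the contrast (adjusted p = 0.0289), also with library number as a block (adjusted p = 0.00611), and with library weights (adjusted p = 0.0188). Gabbr1, a GABA-B subunit, had 279, 309 and 284 TPM in NBN, against 167, 164 and 159.9 TPM in BP and was not called at 0.82 ± 0.18. The kainate subunit gene Grik2 went the other way, with 14.7, 9.41 and 13.2 TPM in NBN, against 58.9, 33.1 and 45.8 TPM in BP (log2 difference -1.79 ± 0.36, adjusted p = 8.10e-05).

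**Figure D4:**
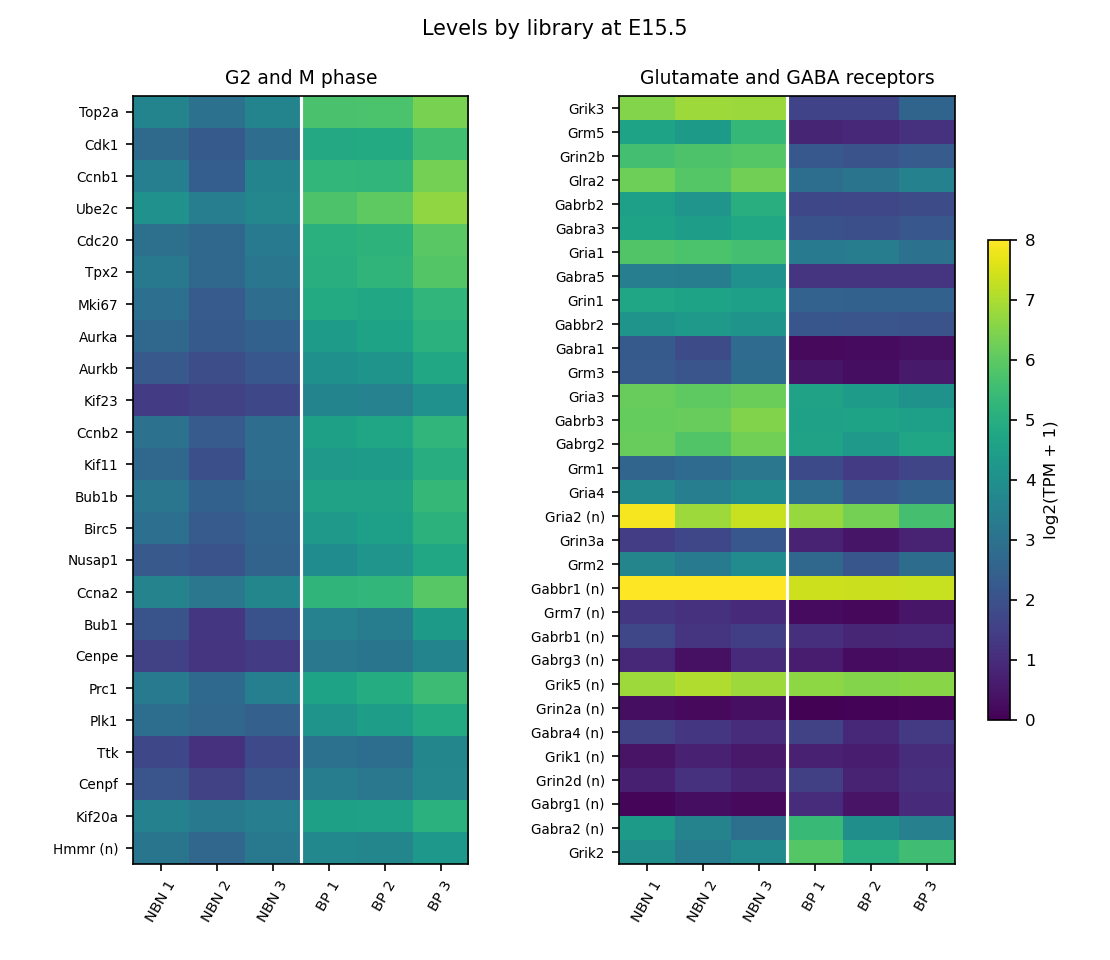
Colour gives log2(TPM + 1) in each library, NBN 1 to 3 left of the white line and BP 1 to 3 right of it, for 24 genes of G2 and M phase and 32 glutamate and GABA receptor genes, ordered by their difference. Genes marked (n) were not called, which were 1 of the 24 mitotic and 12 of the 32 receptor genes.

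Of 33 genes of voltage-gated channels 16 rose and none fell, with a median of 0.97. With a pseudocount of 5 the rises were 8. Cacna1e, an R-type calcium channel, had 57.1, 55.8 and 49.2 TPM in NBN, against 5.86, 5.33 and 5.50 TPM in BP (log2 difference 3.06 ± 0.44, adjusted p = 2.14e-07). The potassium channel beta subunit gene Kcnab1 had 7.47, 5.69 and 11.8 TPM in NBN, against 0.638, 0.411 and 0.495 TPM in BP (log2 difference 2.57 ± 0.29, adjusted p = 1.06e-09). Kcnq5 rose by 1.91.

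Of 23 genes of cAMP and cGMP signalling 11 rose and 1 fell, with a median of 0.93. Adcy1, a calcium-stimulated adenylyl cyclase, had 50.6, 44.6 and 60.9 TPM in NBN, against 3.84, 3.29 and 4.29 TPM in BP (log2 difference 3.46 ± 0.31, adjusted p = 2.41e-12), and Adcy2 had 10.1, 10.4 and 17.3 TPM in NBN, against 1.24, 1.78 and 1.93 TPM in BP (log2 difference 2.33 ± 0.20, adjusted p = 1.03e-12). Gucy1a3, a subunit of the nitric oxide receptor, had 37.2, 27.1 and 41.5 TPM in NBN, against 1.33, 2.18 and 2.15 TPM in BP (log2 difference 3.65 ± 0.43, adjusted p = 2.17e-09). These 3 genes code for enzymes that make the messengers. Pde4b, whose product breaks down cAMP, also rose, with 51.9, 48.4 and 54.5 TPM in NBN, against 8.39, 13.4 and 9.19 TPM in BP (log2 difference 2.24 ± 0.23, adjusted p = 7.64e-11). The phosphodiesterase gene Pde1b fell, with 35.7, 30.1 and 26.6 TPM in NBN, against 107, 77.8 and 71.1 TPM in BP (log2 difference -1.43 ± 0.19, adjusted p = 4.92e-08). Of 15 RGS genes, which speed the switching-off of G proteins, 6 rose and none fell, with a median of 0.76. Rgs8 had 66.3, 70.4 and 96.8 TPM in NBN, against 11.6, 7.403 and 15.9 TPM in BP (log2 difference 2.68 ± 0.33, adjusted p = 6.93e-09), and Rgs9 had 13.2, 11.6 and 16.2 TPM in NBN, against 1.92, 1.86 and 1.40 TPM in BP (log2 difference 2.42 ± 0.27, adjusted p = 7.85e-10).

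Of 23 neuropeptide and peptide receptor genes 5 rose and 4 fell, with a median of 0.14. The peptide gene Npy had 67.2, 50.5 and 41.2 TPM in NBN, against 0.858, 1.17 and 3.92 TPM in BP (log2 difference 4.29 ± 0.56, adjusted p = 2.80e-08), and its receptor gene Npy1r had 5.96, 3.68 and 6.73 TPM in NBN, against 1.82, 1.51 and 1.63 TPM in BP (log2 difference 1.25 ± 0.31, adjusted p = 0.00122). The stress hormone receptor gene Crhr1 had 4.74, 4.75 and 6.60 TPM in NBN, against 0.790, 0.943 and 0.852 TPM in BP (log2 difference 1.76 ± 0.27, adjusted p = 1.19e-06). Ntsr1, given above, and Cck were the others. Cck had 23.1, 35.6 and 23.3 TPM in NBN, against 10.1, 12.1 and 8.998 TPM in BP (log2 difference 1.29 ± 0.50, adjusted p = 0.0427), a call lost without any 1 of the 6 libraries (adjusted p 0.0573 to 0.155). Tac2 was listed at 0 in all 3 NBN libraries, against 10.2, 4.39 and 3.08 TPM in BP. Besides Sstr2, the somatostatin receptor gene Sstr3 fell, with 4.84, 5.09 and 3.36 TPM in NBN, against 14.7, 16.1 and 19.7 TPM in BP (log2 difference -1.72 ± 0.28, adjusted p = 3.15e-06). The neurotensin gene Nts had 0.797, 1.88 and 2.85 TPM in NBN, against 10.3, 13.0 and 22.2 TPM in BP (log2 difference -2.51 ± 0.89, adjusted p = 0.0255), a call lost without NBN library 1 or 2 or BP library 3 (highest adjusted p = 0.101).

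Axon guidance and migration genes moved in both directions. Of 40 guidance genes 7 rose and 10 fell, with a median of -0.27. Sema3f, a repellent ligand, had 45.9, 44.7 and 42.9 TPM in NBN, against 6.91, 8.73 and 5.63 TPM in BP (log2 difference 2.51 ± 0.31, adjusted p = 1.11e-08), and Slit1, the ligand of ROBO receptors, had 81.1, 96.5 and 81.6 TPM in NBN, against 19.4, 16.9 and 28.9 TPM in BP (log2 difference 1.97 ± 0.25, adjusted p = 1.95e-08). The receptor genes Robo1 and Ephb1 rose as well. Robo1 had 210.1, 209.8 and 189 TPM in NBN, against 49.2, 69.9 and 45.2 TPM in BP (log2 difference 1.89 ± 0.36, adjusted p = 3.14e-05), and Ephb1 had 90.4, 78.1 and 64.8 TPM in NBN, against 24.4, 12.9 and 13.8 TPM in BP (log2 difference 2.17 ± 0.28, adjusted p = 3.13e-08). Among the falls, Nrp1, the semaphorin 3 receptor, had 60.6, 30.5 and 21.8 TPM in NBN, against 227, 165.04 and 186 TPM in BP (log2 difference -2.44 ± 0.35, adjusted p = 2.31e-07), and its relative Nrp2 fell by 1.88. The neuropilins and the semaphorin 3 gene Sema3c were thus lower, while Sema3f of the same family was higher. The plexin genes Plxnb1 and Plxnb2 fell by 1.07 and 1.03, and both sizes dropped under that called without NBN library 3, BP library 1 or BP library 3 (smallest -0.97 and -0.90).

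Of 22 genes of radial migration and Reelin signalling 3 rose and 4 fell, with a median of 0.09. Dab1, the adaptor that relays Reelin, had 309, 339.9 and 298 TPM in NBN, against 30.1, 64.4 and 41.9 TPM in BP (log2 difference 2.84 ± 0.28, adjusted p = 2.23e-11), and Vldlr, a Reelin receptor, had 63.1, 49.1 and 56.8 TPM in NBN, against 12.8, 10.3 and 13.0 TPM in BP (log2 difference 2.14 ± 0.31, adjusted p = 2.78e-07). Reln itself had 139, 117 and 153 TPM in NBN, against 78.3, 34.8 and 57.4 TPM in BP (log2 difference 1.31 ± 0.42, adjusted p = 0.0129), a call lost without NBN library 3 or BP library 2 (highest adjusted p = 0.104). The ligand, a receptor and the adaptor were the 3 genes of this list that rose. Reln is also on the Cajal-Retzius list given below, and which cells its RNA came from was not tested. The falls were Nde1, a dynein partner of dividing progenitors, with 10.5, 7.97 and 11.3 TPM in NBN, against 29.0, 29.6 and 40.6 TPM in BP (log2 difference -1.64 ± 0.22, adjusted p = 5.90e-08), the GTPase genes Rnd2 and Rnd3, and the chemokine gene Cxcl12. Rnd3 had 40.8, 36.3 and 52.4 TPM in NBN, against 127, 99.7 and 148 TPM in BP (log2 difference -1.51 ± 0.32, adjusted p = 2.05e-04), and Cxcl12 had 9.49, 10.1 and 10.7 TPM in NBN, against 52.6, 51.1 and 68.0 TPM in BP (log2 difference -2.38 ± 0.34, adjusted p = 2.63e-07).

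Of 23 genes of the apical junction and its dissolution 4 fell and 1 rose, with a median of -0.24. The polarity gene Pard3 had 15.7, 11.2 and 11.7 TPM in NBN, against 77.1, 60.9 and 78.7 TPM in BP (log2 difference -2.40 ± 0.17, adjusted p = 5.77e-15), and Ctnna1, the epithelial alpha-catenin, had 28.8, 22.8 and 30.0 TPM in NBN, against 70.6, 62.4 and 69.9 TPM in BP (log2 difference -1.29 ± 0.18, adjusted p = 1.15e-07). Scrt2, a repressor that helps cells detach from the apical surface, had 109, 147 and 103 TPM in NBN, against 356, 349 and 311 TPM in BP (log2 difference -1.51 ± 0.24, adjusted p = 1.67e-06). Crb1 was low, with 0.633, 0.297 and 0.864 TPM in NBN, against 2.30, 1.23 and 3.44 TPM in BP (log2 difference -1.02 ± 0.34, adjusted p = 0.0181), and was not called without NBN library 2 or BP library 1 or 3 (highest adjusted p = 0.133). The gene that rose was Prkcz, an atypical protein kinase C, with 69.0, 71.0 and 67.9 TPM in NBN, against 27.6, 29.5 and 27.3 TPM in BP (log2 difference 1.27 ± 0.22, adjusted p = 6.26e-06). The adhesion genes Ctnnb1, with 705, 564 and 692 TPM in NBN, against 1208, 976 and 1264 TPM in BP, and Cdh2 (N-cadherin), with 371, 380.1 and 365 TPM in NBN, against 274, 262 and 264 TPM in BP, were abundant in both groups and not called, at -0.81 ± 0.12 and 0.48 ± 0.18.

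Subunits of the BAF chromatin remodeller are known to be exchanged as neural progenitors become neurons, and 4 of 21 genes rose and 1 fell. Actl6b, the neuronal subunit, had 323, 369 and 314 TPM in NBN, against 131, 163 and 118 TPM in BP (log2 difference 1.29 ± 0.36, adjusted p = 0.00436), and Dpf1 had 268, 335 and 292 TPM in NBN, against 92.7, 124 and 116 TPM in BP (log2 difference 1.42 ± 0.24, adjusted p = 4.44e-06). The progenitor subunit gene Actl6a had 48.4, 39.4 and 43.7 TPM in NBN, against 90.9, 84.1 and 106 TPM in BP (log2 difference -1.08 ± 0.14, adjusted p = 2.89e-08), with a size just under that called without BP library 3 (-0.99). Smarca2, an alternative ATPase, had 419, 415 and 409 TPM in NBN, against 126, 134.6 and 118 TPM in BP (log2 difference 1.71 ± 0.24, adjusted p = 1.85e-07), and Dpf3 had 32.0, 47.6 and 33.1 TPM in NBN, against 7.94, 7.19 and 7.33 TPM in BP (log2 difference 2.16 ± 0.40, adjusted p = 2.47e-05). Of 31 splicing and RNA-binding genes 6 rose and 3 fell. Ptbp1, which represses neuronal exons, had 68.7, 55.4 and 55.0 TPM in NBN, against 174, 143 and 156 TPM in BP (log2 difference -1.39 ± 0.17, adjusted p = 9.26e-09), and Rbfox1, which promotes them, had 121, 144.96 and 136 TPM in NBN, against 34.0, 50.1 and 28.6 TPM in BP (log2 difference 1.84 ± 0.41, adjusted p = 3.37e-04). Celf5, Celf6 and Khdrbs2 rose by 1.25, 1.52 and 1.10. Elavl2 fell, with 153, 142 and 158 TPM in NBN, against 341, 287 and 327 TPM in BP (log2 difference -1.07 ± 0.32, adjusted p = 0.00745). Of 18 genes of Polycomb repressive complex 2 and DNA methylation only Uhrf1, given above, was called.

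Metabolic lists changed little, with single exceptions. Of 27 genes of glycolysis and hypoxia 3 rose and 1 fell, with a median of 0.01. The neuronal enolase gene Eno2 had 70.3, 71.6 and 64.3 TPM in NBN, against 20.7, 26.3 and 20.3 TPM in BP (log2 difference 1.58 ± 0.25, adjusted p = 1.87e-06), Hk1 had 119.8, 152 and 132 TPM in NBN, against 47.1, 55.8 and 53.3 TPM in BP (log2 difference 1.35 ± 0.19, adjusted p = 1.12e-07), and Pfkp had 49.3, 28.1 and 33.7 TPM in NBN, against 8.23, 5.98 and 6.41 TPM in BP (log2 difference 2.24 ± 0.37, adjusted p = 3.11e-06). The glucose transporter gene Slc2a1 fell, with 28.0, 22.5 and 17.7 TPM in NBN, against 55.0, 41.4 and 51.6 TPM in BP (log2 difference -1.10 ± 0.27, adjusted p = 0.00135), but its size dropped under that called without NBN library 3 (-0.94). The pyruvate kinase gene Pkm had 708, 663 and 606 TPM in NBN, against 1137, 1069 and 1211 TPM in BP and was not called at -0.79 ± 0.17. Of 20 cholesterol synthesis genes 1 fell, Insig1, by 1.02, which dropped under the size called without BP library 3 (-0.82). None of 13 mitochondrially encoded genes was called in limma. None of these 13 passed an unadjusted p under 0.05 either.

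Among 22 immediate early and dissociation genes 2 rose and 1 fell. Klf6 had 23.8, 24.5 and 27.9 TPM in NBN, against 8.72, 9.77 and 11.0 TPM in BP (log2 difference 1.29 ± 0.25, adjusted p = 4.34e-05), Fosl2 had 23.2, 21.5 and 13.95 TPM in NBN, against 6.22, 5.30 and 5.49 TPM in BP (log2 difference 1.59 ± 0.35, adjusted p = 2.99e-04), and Ier2 had 17.8, 19.02 and 10.7 TPM in NBN, against 53.9, 41.9 and 46.7 TPM in BP (log2 difference -1.56 ± 0.31, adjusted p = 8.18e-05). Of 19 genes of the p53 response and apoptosis 3 rose and 2 fell. The anti-apoptotic Bcl2 had 16.9, 18.8 and 22.7 TPM in NBN, against 3.69, 3.38 and 6.27 TPM in BP (log2 difference 1.94 ± 0.33, adjusted p = 5.24e-06), while the pro-apoptotic Pmaip1 and Bbc3 rose by 1.49 and 1.35. Pmaip1 was low, with 2.78, 3.63 and 3.87 TPM in NBN, against 0.551, 0.751 and 0.419 TPM in BP. The pro-apoptotic Bcl2l11 fell, with 5.48, 3.91 and 4.76 TPM in NBN, against 15.8, 9.93 and 13.2 TPM in BP (log2 difference -1.28 ± 0.18, adjusted p = 1.33e-07), as did the p53 target Cdkn1a, with 6.68, 6.03 and 5.72 TPM in NBN, against 22.5, 12.2 and 18.2 TPM in BP (log2 difference -1.35 ± 0.36, adjusted p = 0.00252).

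Markers of other cells were mostly low. Over 20 interneuron genes, which include the factor Prox1, the summed level was 48.1 to 74.3 TPM in NBN and 65.8 to 116 TPM in BP, and 2 were called lower, among them Prox1 (-1.65 ± 0.46). The interneuron gene Gad1 was at or under 2.27 TPM in every library. The 14 tested oligodendrocyte genes summed to 30.5 to 37.9 TPM in NBN and 27.0 to 32.8 TPM in BP, and the 16 endothelial genes to 17.0 to 30.3 TPM in NBN and 11.5 to 30.4 TPM in BP, with none called. Of 17 microglial genes, summing to 17.8 to 27.7 TPM in NBN and 10.4 to 12.45 TPM in BP, 1 was called, higher in NBN. Of 16 astrocyte genes, 180 to 211 TPM in NBN and 118 to 154 TPM in BP, Sparcl1 had 71.2, 71.0 and 81.9 TPM in NBN, against 7.84, 11.3 and 8.11 TPM in BP (log2 difference 2.92 ± 0.33, adjusted p = 1.00e-09) and Clu had 19.96, 21.1 and 21.2 TPM in NBN, against 6.12, 8.49 and 5.75 TPM in BP (log2 difference 1.499 ± 0.25, adjusted p = 2.86e-06), while Gfap was at or under 0.293 TPM in every library. Of 13 Cajal-Retzius genes 3 were called higher, Reln, Ndnf (2.43 ± 0.33) and Car10 (1.07 ± 0.30), and 1 lower, Cdkn1a. With only the 6 libraries of the contrast in the fit, with or without the block, 3 were called in each direction. Car10 was lost without NBN library 3 or BP library 2 (highest adjusted p = 0.0654). Trp73, which defines those cells, had 22.6, 18.8 and 25.8 TPM in NBN, against 27.0, 10.3 and 17.2 TPM in BP and was not called. Of 11 meningeal genes, 10.7 to 26.3 TPM in NBN and 17.8 to 38.7 TPM in BP, Crabp2 was called lower (-1.09 ± 0.38), a call lost without NBN library 1 or 3 or BP library 3 (highest adjusted p = 0.114). Erythroid RNA was uneven between libraries, with Hbb-bs at 222, 21.9 and 42.1 TPM in NBN, against 12.6, 15.497 and 189 TPM in BP, and so was Ttr, the choroid plexus marker, with 192, 60.3 and 5.99 TPM in NBN, against 68.1, 129 and 50.2 TPM in BP. Neither of these 2 was called, and the part of any of these cells in the results above was not tested.

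The genes that rose were long. By the GENCODE vM21 annotation, matched for 98.9% of the higher, 99.3% of the lower and 98.6% of all tested genes, the median gene spanned 59.6 kb among those called higher, 24.5 kb among those called lower and 22.7 kb among all genes tested. Exonic length differed less, with medians of 5.33 kb, 4.46 kb and 4.26 kb. The authors may have quantified against another annotation release, and the part of gene length in the calls was not tested.

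The E15.5 difference was largely shared with later days. NBN and BP of E16.5, E17.5 and E18.5 (3, 4 and 3 libraries each) gave 796 genes higher (5.23%) and 651 lower (4.27%) at E16.5, 838 (5.5%) and 1035 (6.8%) at E17.5, and 968 (6.36%) and 944 (6.2%) at E18.5. The excess of lower calls at E17.5 turned with the scaling, to 1031 higher and 826 lower with quantile scaling and 1006 higher and 839 lower with median-of-ratios scaling, where the median log2 difference of all genes at E17.5 was -0.0045 in place of -0.12. Of the genes called higher at E15.5, 699 were also called higher at E16.5 (67.0% of the E15.5 list and 87.8% of the E16.5 list), 643 at E17.5 and 620 at E18.5. Of the genes called lower, 515 were shared with E16.5 (73.3% and 79.1%), 573 with E17.5 and 545 with E18.5. All 4 days shared 531 higher genes, 50.9% of those of E15.5, and 485 lower genes, 69.0%. At no later day were 268 of the higher genes (25.7%) and 112 of the lower genes (15.9%) called, and 6 higher and 4 lower genes were called in the opposite direction at E18.5. The days share no library, so each is a comparison of its own, and a gene called on 1 day only is not thereby shown to differ between days.

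That difference between days was tested directly, as the NBN minus BP difference at E15.5 minus the mean of the 3 later days. It was called in 210 of 15231 genes (1.38%), 140 (0.919%) in the positive and 70 (0.46%) in the negative direction. With only the NBN and BP libraries of the 4 days in the fit the counts were 171 and 75, and with library number as a block in that fit 219 and 110. The excess of positive calls depended on scaling, the counts being 80 and 88 with quantile scaling and 112 and 88 with median-of-ratios scaling. Of the 140, 101 were called higher at E15.5, and of the 70, 21 were called lower and 45 were not called. The counts are unstable to single libraries: 93, 93 and 91 positive calls were left without NBN library 1, BP library 2 or BP library 3, and 33, 38 and 29 negative calls without NBN library 2, NBN library 3 or BP library 3. The repeat-like models again took the first places, with differences of 6.73 to 7.52. For Gm10800 the difference between days was 7.52 ± 2.12 (adjusted p = 0.0464), and it was lost in 5 of 6 fits that left out a library (highest adjusted p = 0.219).

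After those, the largest positive differences between days were those of Dpf3, Rgs6, Cxcl14, Stac2 and Nxph3. The NBN minus BP difference of Dpf3, a BAF subunit that reads histone acetylation, was 2.16 ± 0.40 at E15.5, 0.08 at E16.5, -0.89 at E17.5 and -1.60 at E18.5, so its direction turned over 3 days (E15.5 against the mean of later days 2.97 ± 0.46, adjusted p = 2.82e-05). Stac2, an adaptor of calcium channels, turned likewise, with 1.52 ± 0.36 at E15.5 and -1.72 at E18.5 (difference between days 2.53 ± 0.41, adjusted p = 6.36e-05). Its level at E15.5 was 13.3 ± 0.514 TPM in NBN and 4.02 ± 0.828 TPM in BP (SD, n = 3 each), and at E18.5 it averaged 7.79 TPM in NBN and 28.1 TPM in BP. Rgs6, Cxcl14 and Nxph3 kept their direction at a smaller size, the chemokine gene Cxcl14 with 13.4, 10.3 and 25.3 TPM in NBN, against 0.0667, 0.0606 and 0.541 TPM in BP at E15.5 and a log2 difference of 0.59 at E18.5. Their differences between days were 2.77 ± 0.40, 2.68 ± 0.52 and 2.49 ± 0.43. These 5 calls held without any 1 library.

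In the other direction stood Nts, Kif26b, Fat1, Cdh8 and Nefm. Kif26b, an atypical kinesin, had 5.13, 3.71 and 4.79 TPM in NBN, against 26.8, 16.6 and 17.6 TPM in BP at E15.5 (log2 difference -1.92 ± 0.29, adjusted p = 8.32e-07), and its difference was 1.16 at E18.5 (difference between days -2.47 ± 0.34, adjusted p = 3.04e-06). Fat1, a giant cadherin, had 4.26, 2.37 and 3.95 TPM in NBN, against 14.3, 9.83 and 16.8 TPM in BP at E15.5 (log2 difference -1.69 ± 0.25, adjusted p = 3.08e-07) and 1.33 at E18.5 (-2.05 ± 0.28, adjusted p = 3.86e-06). Both genes were thus lower in NBN at E15.5 and higher in NBN at E18.5. Cdh8, a cadherin that marks cortical areas, had 19.1, 11.96 and 12.2 TPM in NBN, against 87.9, 74.8 and 62.4 TPM in BP at E15.5 (log2 difference -2.32 ± 0.33, adjusted p = 1.89e-07), and 0.19 at E18.5 (-1.87 ± 0.38, adjusted p = 0.00167). Nts was lower at E15.5 and stood at 4.15 at E18.5 (-3.84 ± 1.02, adjusted p = 0.0283), a call lost without NBN library 1 or 2 or BP library 2 or 3 (highest adjusted p = 0.134). Nefm was higher on every day, least at E15.5 (-1.82 ± 0.50, adjusted p = 0.0373). Its call was lost without any 1 library other than BP library 1 (highest adjusted p = 0.156). With library number as a block, and only the NBN and BP libraries of the 4 days, Nts and Nefm were called (adjusted p = 0.00821 and 0.00325).

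**Figure D5:**
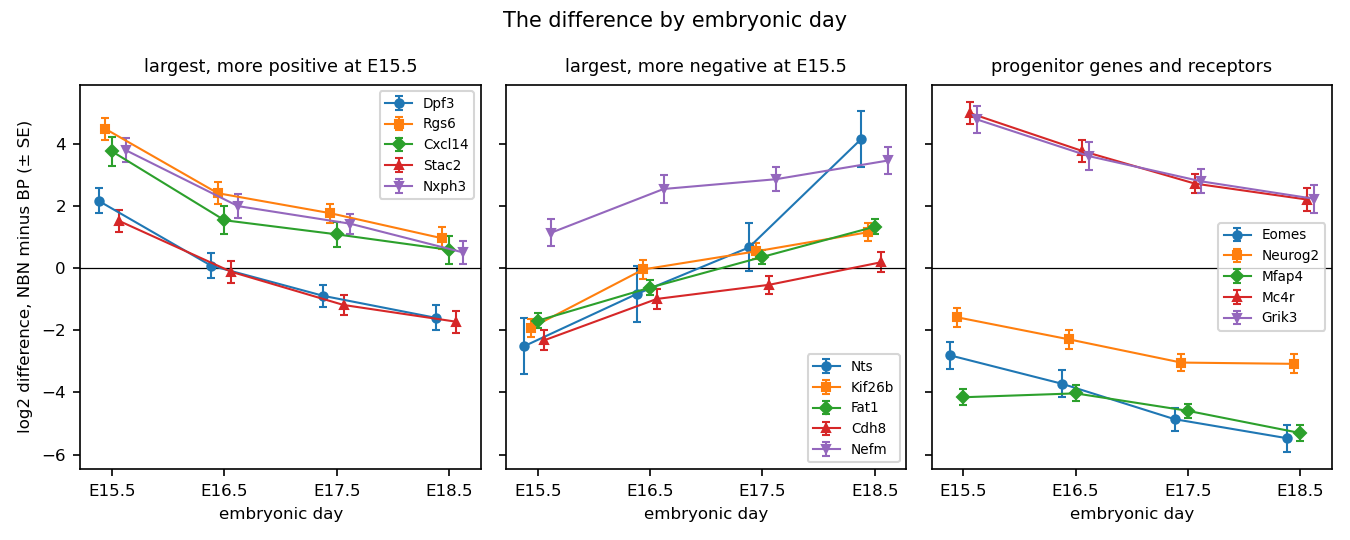
NBN minus BP log2 difference ± SE on each embryonic day, with the 5 genes of each direction whose E15.5 difference departs most from the later days (left and middle, repeat-like models left out) and 5 genes of the lists above (right). Dpf3 and Stac2 cross from positive to negative and Kif26b and Fat1 from negative to positive, while Eomes lies at -2.80 at E15.5 and -5.47 at E18.5.

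Some genes of the E15.5 contrast itself also differed from the later days. Eomes was less far below BP at E15.5 (-2.80 ± 0.43) than at E18.5 (-5.47), a difference between days of 1.88 ± 0.49 (adjusted p = 0.0263), and Neurog2 behaved alike (1.22 ± 0.35, adjusted p = 0.0455). Mean Eomes in NBN was 71.5 TPM at E15.5 and 9.49 TPM at E18.5. The Eomes call was lost without any 1 library other than NBN library 2 (highest adjusted p = 0.143), and the Neurog2 call without NBN library 1 or 3 or BP library 2 or 3 (highest 0.256). Mc4r was farther above BP at E15.5 by 2.09 ± 0.41 (adjusted p = 0.00129), a call that no single library ended but a pseudocount of 0.1 did (adjusted p = 0.252). Grik3, Hs3st4 and Nin were farther above by 1.91 ± 0.51, 1.67 ± 0.45 and 1.59 ± 0.43, and Hdac9 and Slc17a6 farther below at -1.12 ± 0.31 and -1.497 ± 0.41. The calls of Grik3, Hs3st4, Nin and Neurog2 were also lost with quantile scaling (adjusted p = 0.0855, 0.118, 0.0829 and 0.0531) and that of Neurog2 with median-of-ratios scaling (adjusted p = 0.064). Those of Hs3st4, Nin and Hdac9 were lost in all 6 fits that left out a library (adjusted p up to 0.160, 0.117 and 0.154). Of those 6 fits, Grik3 kept its call only without BP library 3 and Slc17a6 only without BP library 2 (highest adjusted p 0.127 and 0.181). With library number as a block, and only the NBN and BP libraries of the 4 days, each gene of this paragraph was called. Adjusted p ran from 3.31e-04 for Eomes to 0.0182 for Hs3st4. Without the block that fit lost Hdac9 (adjusted p = 0.0845). Whether libraries match by number on the later days was not tested.

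The levels in neural stem cells of the same day are given as a description only. Sox2 averaged 81.1 ± 28.7 TPM in NSC, above both other groups, and Ddah1 71.9 ± 27.6 TPM (SD, n = 3). Eomes averaged 319.9 ± 48.7 TPM in NSC, and Tubb3 2129.5 ± 219 TPM, so the Hes5::GFP sort at this day also held progenitor and neuronal RNA. Sla and Sybu, the 2 largest rises with repeat-like models set aside, lay between the groups there. Sla averaged 117 ± 64.4 TPM and Sybu 41.0 ± 17.0 TPM in NSC, above BP and below NBN. The NSC levels of the other large rises are not given here. Nhlh1 and Mfap4, the largest falls, averaged 55.0 ± 13.97 and 162 ± 16.6 TPM in NSC, above NBN and below BP.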

How the data were processed

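RNA was taken with TRIzol, made into libraries with the TruSeq RNA v2 kit and read as single 50-base reads, per the labels' protocols. Reads were quantified with kallisto 0.43.0, per the submitters' processing notes, which name the builds GRCm38.p2 and mm10. The authors deposited TPM for 23078 genes in 63 libraries. No counts are given, so precision rests on the spread between libraries.

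From these TPM, log2(TPM + 1) was computed for 15231 genes that reached 1 TPM in 3 or more libraries. A model with 19 group means over all 63 libraries was fitted with limma 3.58.1 (R 4.3.3, variances with a trend), which shares 1 estimate of the spread, and p-values were adjusted by Benjamini and Hochberg. The test was checked on simulated data. A block on library number was an alternative, since same-numbered libraries of NBN and BP deviated together (0.57, 0.416 and 0.201).

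Named are the 10 largest called differences in each direction with a mean of at least 10 TPM and no overlap, up to 4 called and 2 abundant uncalled genes per list, the 5 largest differences between days, and a fixed set (Mki67, Pax6, Eomes, Neurog2, Hes5, Ski, Tubb3, Bcl11b, Neurod6, Xist, Ddx3y). Some genes of this rule are not reported here. Genes named in addition, to account for small counts, were chosen after their values were seen. The comparison, members and 42 lists were chosen with earlier results of these data known.

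Alternatives were pseudocounts of 0.1 and 5, no filter, a mean of at least 5 TPM, quantile and median-of-ratios scaling, library weights, a Y-linked covariate, only the libraries of the contrast, the block in that fit, and each E15.5 library left out. Leaving out 12 repeat-like models was added after seeing the data. Promoters are RefSeq's (GRCm38.p6). Protein sequences were not used here.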

Additional observations from a re-analysis of the deposited data

Results flagged for a closer look

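These are genes named above whose NBN minus BP difference at E15.5 departed from the mean of E16.5 to E18.5 in a test of that difference itself (limma over all genes, adjusted p under 0.05 and a log2 size of at least 1). A positive value means that the gene was higher relative to BP at E15.5 than later. No explanation was tested for any of them.

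The repeat-like models had the highest values, 7.52 for Gm10800 and 7.41 for Gm10801. Their adjusted p values were 0.0464 and 0.0447, and the summed level of the 12 models varied between 24.1 and 31228 TPM over the 63 libraries. The BAF subunit gene Dpf3 stood at 2.97, with 37.6 TPM in NBN and 7.49 TPM in BP at E15.5 and 9.05 TPM in NBN and 29.4 TPM in BP at E18.5. Rgs6, which acts on G proteins, stood at 2.77, and the chemokine gene Cxcl14 at 2.68. Stac2 stood at 2.53 and Nxph3 at 2.49. Of the genes with the largest rises at E15.5, Mc4r stood at 2.09, Grik3 at 1.91, Hs3st4 at 1.67 and Nin at 1.59. The progenitor genes Eomes and Neurog2 stood at 1.88 and 1.22, their fall in NBN being smaller at E15.5.

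Negative values were found for the neurotensin gene Nts (-3.84), Kif26b (-2.47), Fat1 (-2.05), Cdh8 (-1.87) and Nefm (-1.82). Among the largest falls at E15.5 Slc17a6 stood at -1.497 and Hdac9 at -1.12. Mean Kif26b was 4.54 TPM in NBN and 20.3 TPM in BP at E15.5, and 52.1 TPM in NBN and 22.7 TPM in BP at E18.5. Mean Fat1 was 3.52 TPM in NBN and 13.7 TPM in BP at E15.5, and 31.2 TPM in NBN and 11.48 TPM in BP at E18.5. Mean Nts was 1.84 TPM in NBN and 15.2 TPM in BP at E15.5, and 57.1 TPM in NBN and 2.47 TPM in BP at E18.5.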

How the results depend on the processing

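The counts at E15.5 were within 1.5 times of 1044 higher and 703 lower under every alternative run except a pseudocount of 5, which gave 610 and 373. Of the 1747 calls, 980 remained with that pseudocount and 1576 to 1671 with 1 E15.5 library left out (higher calls 968 to 1093, lower calls 613 to 806). The pseudocount of 5 also gave 422 and 311 at E16.5, 467 and 548 at E17.5, and 509 and 504 at E18.5, and a mean of 5 TPM or more gave 619 higher at E18.5. The counts of differences between days, 140 positive and 70 negative, were the least stable. They were 81 and 34 with a pseudocount of 5, 224 and 114 with library weights, 171 and 75 with only the libraries of the contrast, and 219 and 110 with the replicate block in that fit. Quantile scaling gave 80 and 88, so the excess of positive calls turned, and a mean of 5 TPM or more gave 100 and 33. With 1 library left out they ran from 91 to 121 and from 29 to 55. The cause was not tested. Of 216 gene results, the Y-linked covariate kept the direction and call of 216, and the fit of only the libraries of the contrast of 215, all but Gria2. The replicate block in that fit changed no further call. The pseudocount of 5 ended 29 E15.5 calls, among them those of Dll1, E2f1, Smad3, Tgfb2 and Sox2, and left 0 of the 2 falls in the TGF-beta and BMP list, 0 of the 2 in the p53 and apoptosis list and 3 of the 5 rises in the neuropeptide list. A pseudocount of 0.1 or no filter ended those of Pcp4 and Cck. Hes5, low and not called, turned to 0.20 without NBN library 2 and to 0.08 without BP library 3, within a range of -0.45 to 0.20 over the 6 libraries left out in turn. Depth is unknown, so genes near 0 TPM carry an error that cannot be given.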
